A study of Homo sapiens with 12 samples.

Results

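The genes of homologous recombination and the Fanconi anemia pathway were followed in HN30 and HN6 cells after FAT1 knockdown (KD). The members were chosen by symbol from a list of 40 names. Of these, 39 named a row of the count table, and the other, MRE11A, is an older symbol of MRE11; all 39 genes of the 19225 table entries passed the filter on low counts in every fit. HN30 and HN6 are established human oral squamous cell carcinoma (OSCC) cell lines. Each line was transfected with a scrambled siRNA (NC) or with 1 of 2 siRNAs against FAT1, siFAT1-1 and siFAT1-2, without any further genotype or drug, and its poly(A) RNA was sequenced 24 h later. Each of the 6 conditions had 2 repeats, which the labels number as separate times, so the 12 libraries comprised 4 NC and 8 FAT1 KD libraries. The labels name the KD groups as hairpins and their descriptions as siRNAs, and each condition rests on 1 cell line grown alone, without stroma or immune cells.

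Homologous recombination repairs a broken chromosome by copying the intact sister chromatid, which is present only after the DNA has been replicated. The broken ends are trimmed to single strands, BRCA1 and BRCA2 with their partners load the recombinase onto them, and helicases and nucleases take the joined molecules apart. The Fanconi anemia pathway recognizes crosslinks between the DNA strands at a stalled replication fork, where a core complex with the E2 enzyme UBE2T attaches ubiquitin to the FANCD2 and FANCI pair, and ATM, ATR, CHEK1 and CHEK2 signal the damage to the cell cycle. Many of these genes are transcribed mostly in dividing cells, around S phase. The question asked of them here was how far each differed between KD and NC, and how that compared with the S phase genes of the same libraries.

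Total counts per library ranged from 26430049 to 47639010, and the member counts behind single values from 23 to 3958. Levels are given as CPM, that is, counts scaled to the normalized library size. FAT1 was at 13.6 and 14.8 CPM with NC and at 4.85 to 10.8 CPM in the KD libraries of HN30, and at 56.8 and 66.8 against 7.60 to 21.4 CPM in HN6, without overlap in either line. The depth of the knockdown differed between the siRNAs. In HN30 the mean FAT1 level was 39.1% of NC with siFAT1-1 and 65.4% with siFAT1-2, and in HN6 it was 17.1% and 28.0%. Of the 10 squamous epithelium markers all were present in both lines except KRT14, which reached at most 2.29 CPM and was at 0 in 5 libraries. Their summed level was 2577 to 2667 CPM with NC, 3758 to 3936 CPM with siFAT1-1 and 1664 to 2145 CPM with siFAT1-2 in HN30, so it moved with the siRNA. The leukocyte marker PTPRC was at 0 in 11 of the 12 libraries, whereas CD14 of the same list was present in every library, at 1.93 to 15.2 CPM. The leukocyte and endothelium lists summed to at most 15.2 and 7.84 CPM in any library. The fibroblast list reached 12.6 to 22.8 CPM with NC and 33.3 to 50.6 CPM with KD in HN30. In HN6 it was higher, at 63.4 to 65.1 CPM with NC, 86.5 to 102 CPM with siFAT1-1 and 64.2 to 156 CPM with siFAT1-2. Its genes differed in level: COL1A1 ranged from 11.2 to 152 CPM over the 12 libraries, whereas PDGFRB reached at most 9.34 CPM. COL1A2 was at 0 in 8 libraries and reached at most 3.97 CPM, and DCN reached at most 0.86 CPM. A higher sum is therefore no rise of every gene in the list. The part of this list in the results was not tested. Libraries with the same condition differed from each other by more than counting noise. The study's methods call the repeats biological without saying how separate the cultures were. The P values therefore measure the spread between these libraries, which may be partly technical. The fits of KD against NC, and of its interaction with the line, took both siRNAs as a single KD group without a term for the siRNA. Their spread and standard errors therefore also hold the difference between siFAT1-1 and siFAT1-2. Because these are bulk samples, fewer cells in S phase and less RNA per cell cannot be told apart. By flow cytometry the paper reported a lower share of cells in S phase after FAT1 knockdown, at a later time than these libraries.

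In HN30, 31 of the 39 members had a negative log2 fold change with FAT1 KD, against 47.3% of all 13602 genes tested. The median of the members was -0.66 against 0.03 over all these genes. The study called a gene when its unadjusted P was under 0.05 and its log2 fold change exceeded 1 in size. By this rule edgeR called 5 members downregulated and 0 upregulated, which is 12.8% of the members against 4.0% of all genes. These were BLM, BRCA2, RAD51AP1, BARD1 and FANCA. At an unadjusted P under 0.05 alone there were 10 of 39 members, all with lower levels, against 1265 of all 13602 genes in either direction. After Benjamini-Hochberg adjustment over all genes, 0 members and 0 genes passed with edgeR, limma-voom and DESeq2 also had 0 members past it, and the lowest edgeR adjusted p of a member was 0.415 for BARD1. Ranking the libraries instead of fitting them, all 4 KD libraries lay below both NC libraries in 10 members, or 25.6%, against 11% of all genes. These 10 were BLM, BRCA2, RAD51AP1, BARD1, FANCA, FANCG, FANCC, RAD54B, XRCC3 and NBN. All 4 lay above both NC libraries in 0 members, against 9.61% of all genes. The last member inside this division was FANCG, at 38.5 CPM in the highest KD library against 38.6 in the lowest NC library, and among those outside UBE2T had 36.6 CPM in its highest KD library against 33.0 and 34.3 with NC.

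The count of 5 rested on few libraries. It was 0 without HN30 NC repeat 2 and 15 without HN30 siFAT1-2 repeat 2, and 8 with the repeat as a replicate block, which added FANCG, FANCB and FANCD2.

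**Figure D1:**
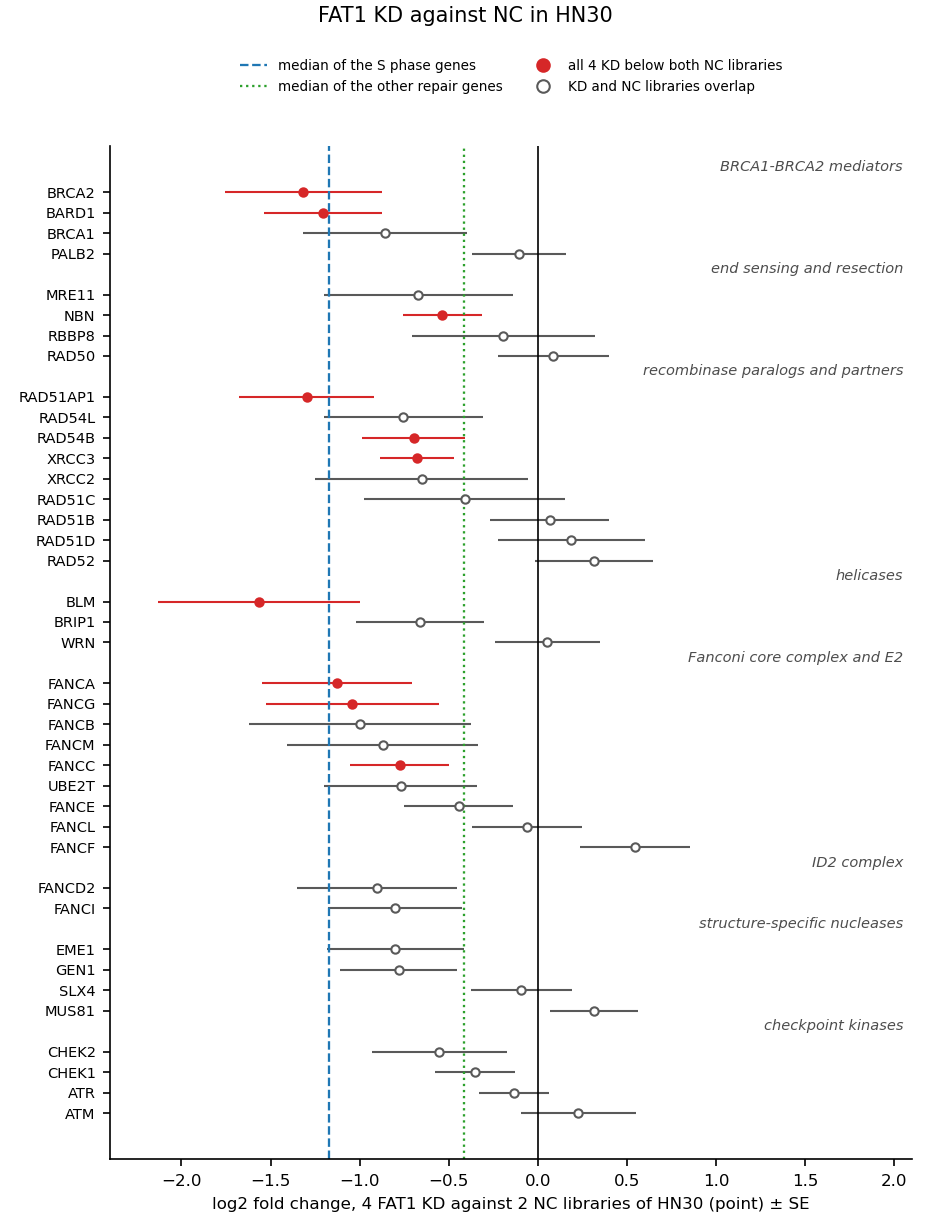
Fitted log2 fold change of FAT1 KD against NC in HN30 for the 39 members, by role, with its standard error. Filled points are the 10 members whose 4 KD libraries all lay below both NC libraries, the dashed line is the median of the S phase genes at -1.17 and the dotted line that of the other repair genes at -0.41; BRCA2, BARD1, RAD51AP1 and BLM sit at or left of the dashed line, and FANCF, MUS81, RAD52 and ATM right of 0.

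The yardstick for S phase was a list of 39 S phase genes that holds no member. All 39 of them had a negative log2 fold change in HN30, with a median of -1.17, and 19 were called downregulated. The G2/M genes were lower too: of 54 genes of the G2/M phase, which share none with this list, 53 were tested, 51 had a negative log2 fold change, the median was -1.002 and 20 were called downregulated. A value near that of the S phase genes is therefore near that of other cell cycle genes too, and the phases cannot be told apart by it. Relative to the NC mean of the line, the mean log2 CPM of this list was -1.96 and -1.57 in the siFAT1-1 libraries and -1.16 and -0.35 in the siFAT1-2 libraries, and that of the G2/M genes was -1.13 and -0.97 and then -1.58 and -0.25. The 10 members that lay below NC in every KD library had medians of -1.49, -1.36, -1.29 and -0.54 in these same libraries, and the other 29 members had medians of -0.71, -0.69, -0.50 and 0.12. The library with the smallest drop of the S phase genes, HN30 siFAT1-2 repeat 2, was also the one in which 19 of 39 members were below the NC mean, against 29 to 34 members in the other KD libraries of HN30. These medians divide the members by the same libraries they describe and are no test.

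**Figure D2:**
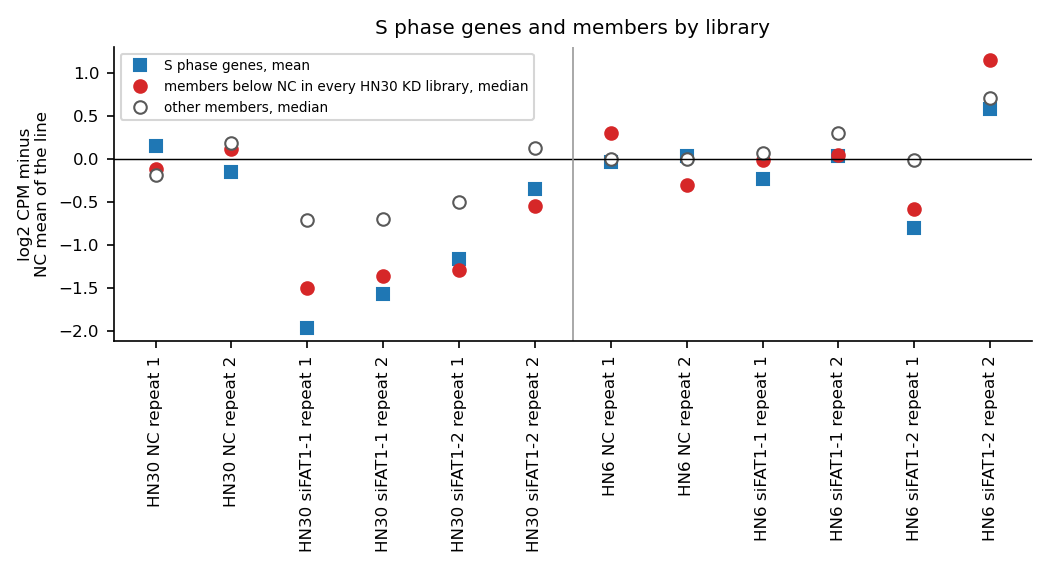
Level of the S phase genes (squares), of the 10 members below NC in every HN30 KD library (filled circles) and of the other 29 members (open circles) in each of the 12 libraries, as log2 CPM minus the NC mean of the line. In HN30 the filled circles lie between -1.49 and -0.54 in the KD libraries and the open circles between -0.71 and 0.12, and in HN6 siFAT1-2 repeat 1 the squares and filled circles lie below 0 and the open circles near 0, while in repeat 2 all lie above 0.

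BLM unwinds joined DNA molecules and dissolves double Holliday junctions, and it had the lowest fold change of the members. It was at 21.2 and 22.3 CPM with NC, at 3.36 and 3.88 CPM with siFAT1-1 and at 7.15 and 15.1 CPM with siFAT1-2 in HN30. All 4 KD libraries were below both NC libraries, those with siFAT1-1 furthest. The log2 fold change was -1.56 (standard error 0.57, edgeR adjusted p = 0.478). Of the other helicases, BRIP1, the partner helicase of BRCA1, showed a log2 fold change of -0.66 (standard error 0.36) and WRN, the Werner syndrome helicase, one of 0.05 (standard error 0.29). Neither passed the threshold, and their difference from BLM was not tested.

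Promoter sequences of RefSeq (GRCh38.p14) were found for 35 of the 39 members; FANCI, NBN, RAD54B and WRN were not among them. They were searched on both strands, over 250 bases before and 50 after the start site, for the word TTCGCGC or its variants TTGGCGC or else TTCCCGC, which resemble the sites of the E2F factors of S phase genes. At least 1 of these words was present in 18 of 35 member promoters (51.4%) against 11.2% of all 27305 promoters of the same length. These 27305 also hold promoters of genes outside the count table and were not limited to genes past the filter, which every member passed. The shares of all promoters given here are therefore not those of genes tested alongside the members. Of the 8 searched members whose 4 KD libraries all lay below NC, 7 held one (87.5%), the exception being BRCA2, and of the other members 11 of 27 did (40.7%). Only 1 start site per gene was searched. For RAD51B, counted as without a word, the bases searched began at 67823291, inside the annotated gene, which begins at 67819779. How far the choice of start site bears on these shares was not tested. The words were shortened by 1 base after longer ones, with a further T at the 5′ end, had been found in 4 of 35 members (11.4%) against 2.79% of all promoters. The longer words were in 1 of the 8 members below NC (12.5%) and in 3 of the other 27 (11.1%), so only the shorter words differed in share between these members. The CCAAT word was present in 42.9% of the member promoters and 35.7% of all promoters, and the words TTTGAA or TTCGAA of the G2/M genes in 11.4% and 16.6%. The shares include members of both kinds, and a word in a promoter is a description of its letters.

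The 250 bases before the start site are shown for the 3 members with the lowest fold changes in HN30, BLM, BRCA2 and RAD51AP1, and for the 3 with the highest among those searched, RAD52, MUS81 and FANCF. The E2F and CCAAT words are in capitals, on either strand and with the sequence read 5′ to 3′ along the gene.
BLM (chr15:90717096-90717345, plus strand): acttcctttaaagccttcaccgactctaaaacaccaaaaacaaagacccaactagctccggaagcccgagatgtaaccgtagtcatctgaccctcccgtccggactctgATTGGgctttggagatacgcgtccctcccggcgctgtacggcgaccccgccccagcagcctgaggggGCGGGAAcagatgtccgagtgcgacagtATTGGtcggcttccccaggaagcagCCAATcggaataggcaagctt
BRCA2 (chr13:32315258-32315507, plus strand): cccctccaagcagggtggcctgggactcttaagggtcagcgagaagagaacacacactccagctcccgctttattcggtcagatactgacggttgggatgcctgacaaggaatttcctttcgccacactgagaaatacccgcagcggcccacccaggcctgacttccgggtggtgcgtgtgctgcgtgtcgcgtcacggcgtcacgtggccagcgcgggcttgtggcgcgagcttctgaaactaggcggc
RAD51AP1 (chr12:4538640-4538889, plus strand): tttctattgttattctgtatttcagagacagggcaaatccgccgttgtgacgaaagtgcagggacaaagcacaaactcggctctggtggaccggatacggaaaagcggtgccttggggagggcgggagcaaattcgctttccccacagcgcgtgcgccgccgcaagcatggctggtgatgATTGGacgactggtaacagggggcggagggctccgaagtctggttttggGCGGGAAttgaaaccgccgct
RAD52 (chr12:949695-949944, minus strand): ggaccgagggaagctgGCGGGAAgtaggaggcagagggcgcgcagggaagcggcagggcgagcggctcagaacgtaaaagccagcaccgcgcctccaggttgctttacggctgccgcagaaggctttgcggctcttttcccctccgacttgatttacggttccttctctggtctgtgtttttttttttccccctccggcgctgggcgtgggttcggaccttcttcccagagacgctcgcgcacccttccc
MUS81 (chr11:65860183-65860432, plus strand): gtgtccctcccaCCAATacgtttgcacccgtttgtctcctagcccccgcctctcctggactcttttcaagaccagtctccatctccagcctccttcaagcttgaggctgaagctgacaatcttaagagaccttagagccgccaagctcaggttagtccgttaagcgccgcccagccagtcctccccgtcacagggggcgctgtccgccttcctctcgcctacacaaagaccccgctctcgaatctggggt
FANCF (chr11:22625824-22626073, minus strand): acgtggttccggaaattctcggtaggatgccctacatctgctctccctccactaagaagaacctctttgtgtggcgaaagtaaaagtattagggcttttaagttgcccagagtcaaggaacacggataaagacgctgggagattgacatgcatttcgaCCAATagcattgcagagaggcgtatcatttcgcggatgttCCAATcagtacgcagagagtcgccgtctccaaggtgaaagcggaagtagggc
In BLM an E2F word begins 74 bases before the start site and others lie just past it, and in RAD51AP1 one begins 21 bases before it, while BRCA2 holds neither an E2F nor a CCAAT word. Of the high members, RAD52 holds an E2F word 234 bases before its start site, the MUS81 window holds none, and that of FANCF holds one only past the start site, outside the bases shown. The log2 fold changes of BLM, BRCA2, RAD51AP1, RAD52, MUS81 and FANCF in HN30 were -1.56, -1.32, -1.30, 0.31, 0.32 and 0.55, so low and high members with and without a word were both present.

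Among the mediators, which bring the recombinase to the broken end, BRCA2 and BARD1 were called by the unadjusted rule and BRCA1 and PALB2 were not. The difference between these genes was not tested. BRCA2, which carries the recombinase, was at 31.1 and 52.8 CPM with NC, at 8.14 and 14.5 CPM with siFAT1-1 and at 17.3 and 27.4 CPM with siFAT1-2 in HN30. All KD libraries lay below NC, and the siFAT1-1 libraries below those of siFAT1-2. Its log2 fold change was -1.32 (standard error 0.44, edgeR adjusted p = 0.456). BARD1, the obligate partner of BRCA1, was at 20.6 and 27.6 CPM with NC, 9.48 and 9.20 CPM with siFAT1-1 and 7.5 and 15.6 CPM with siFAT1-2. Here the siRNAs overlapped and NC stood apart, with a log2 fold change of -1.21 (standard error 0.33, edgeR adjusted p = 0.415). BRCA1 itself was at 41.3 and 38.9 CPM with NC, 11.6 and 14.9 CPM with siFAT1-1 and 21.9 and 40.3 CPM with siFAT1-2. In siFAT1-2 repeat 2 it was between both NC values, and its log2 fold change of -0.86 (standard error 0.46) did not pass. PALB2, the bridge between BRCA1 and BRCA2, showed a log2 fold change of -0.11 (standard error 0.26), at 9.99 and 13.6 CPM with NC and 9.42 to 11.9 CPM with KD.

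Of the genes that sense and trim broken ends, 0 of 4 were called in HN30. MRE11, the nuclease of the MRE11-RAD50-NBN complex, was at 32.2 and 38.6 CPM with NC, at 9.85 and 11.9 CPM with siFAT1-1 and at 30.3 and 37.1 CPM with siFAT1-2, so that siFAT1-1 stood apart and siFAT1-2 overlapped with NC, with 1 of its libraries below both NC libraries. RBBP8 (CtIP), which starts the trimming, was at 24.8 and 27.7 CPM with NC, 10.4 and 13 CPM with siFAT1-1 and 34.9 and 33.7 CPM with siFAT1-2. The NC libraries of RBBP8 therefore lay between the siRNAs. NBN, the signalling subunit, showed a log2 fold change of -0.54 (standard error 0.22), below the fold threshold, with 80.2 and 88.0 CPM in NC and 49.2 to 72.6 CPM in KD libraries. RAD50, the tether of the complex, was at 50.9 and 94.2 CPM with NC, 61.8 and 66.4 CPM with siFAT1-1 and 99.1 and 80.8 CPM with siFAT1-2, with overlapping groups and a log2 fold change of 0.09 (standard error 0.31). The subunits of this complex thus had different values in the same libraries, and the difference between them was not tested.

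The relatives and partners of the recombinase spanned the range from RAD51AP1 to RAD52. RAD51AP1, which stimulates strand pairing, was at 17.5 and 30.1 CPM with NC, 6.46 and 8.99 CPM with siFAT1-1 and 8.36 and 14.9 CPM with siFAT1-2 in HN30. The groups did not overlap, and the log2 fold change was -1.30 (standard error 0.38, edgeR adjusted p = 0.430). XRCC3, a recombinase paralog, was at 35.5 and 42.4 CPM with NC and at 24.5, 24.8, 21.1 and 26.9 CPM with KD. The groups of XRCC3 did not overlap either, but its log2 fold change of -0.68 (standard error 0.21) was smaller than the threshold. RAD54B, a DNA translocase, was also lower in every KD library, at 9.78 and 11.1 CPM with siFAT1-1 and 12.8 and 17.7 CPM with siFAT1-2 against 19.2 and 22.4 CPM with NC, while its relative RAD54L showed a log2 fold change of -0.76 (standard error 0.45) and overlapped. RAD51C, another paralog, was at 17.6 and 13.3 CPM with NC, 4.52 and 6.68 CPM with siFAT1-1 and 16.1 and 19.2 CPM with siFAT1-2. In RAD51C only the siFAT1-1 libraries were below both NC libraries. RAD51B, RAD51D and XRCC2 had log2 fold changes of 0.07, 0.19 and -0.65, and RAD52, which anneals single strands, was at 6.28 and 10.3 CPM with NC, 13.3 and 9.70 CPM with siFAT1-1 and 8.36 and 9.999 CPM with siFAT1-2. The RAD52 groups overlapped, with a log2 fold change of 0.31 (standard error 0.33).

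Among the genes of the Fanconi core complex and its E2 enzyme UBE2T, 8 of 9 members had negative log2 fold changes in HN30 and 1, FANCA, was called. FANCA was at 40.2 and 53 CPM with NC, 14.5 and 16.7 CPM with siFAT1-1 and 15.3 and 38.8 CPM with siFAT1-2. Its siFAT1-2 repeat 2 was only slightly below NC, while the other 3 KD libraries were far below, and the log2 fold change was -1.13 (standard error 0.42, edgeR adjusted p = 0.487). FANCG, which binds FANCA directly, had 38.6 and 41.5 CPM with NC, 10.8 and 12.8 CPM with siFAT1-1 and 15.9 and 38.5 CPM with siFAT1-2, with a log2 fold change of -1.04 (standard error 0.49). FANCC, the third member that was lower in every KD library, was at 21.4 and 17.2 CPM with NC and at 12.2, 12, 8.05 and 12.9 CPM with KD, with a log2 fold change of -0.78 (standard error 0.28). FANCB, FANCM, UBE2T and FANCE had log2 fold changes of -0.998, -0.87, -0.77 and -0.44, and FANCL, the ubiquitin ligase of the complex, one of -0.06. None of these 5 passed the test. FANCF, an adaptor of the complex that is encoded by a single exon, had the highest fold change of the members. It was at 14.8 and 19.7 CPM with NC, 31.3 and 28.8 CPM with siFAT1-1 and 17 and 23.7 CPM with siFAT1-2, so that siFAT1-1 lay above NC and siFAT1-2 overlapped with it. The log2 fold change of FANCF was 0.55 (standard error 0.31).

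The substrates of the core complex, FANCD2 and FANCI, had their libraries in a like order in HN30. FANCD2 was at 41.9 and 50.2 CPM with NC, 15.6 and 20.1 CPM with siFAT1-1 and 16.5 and 46.5 CPM with siFAT1-2. FANCI was at 84.3 and 98.7 CPM with NC, 35.1 and 44.5 CPM with siFAT1-1 and 40.8 and 89.9 CPM with siFAT1-2. In both genes 3 KD libraries lay far below NC and siFAT1-2 repeat 2 lay between the NC values, and the log2 fold changes of -0.90 (standard error 0.45) and -0.80 (standard error 0.38) did not pass.

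Neither the nucleases that cut joined molecules nor the checkpoint kinases had a member called in HN30. MUS81, a cutting nuclease of this kind, was at 22.4 and 28.8 CPM with NC, 33.6 and 38.6 CPM with siFAT1-1 and 26.1 and 29.4 CPM with siFAT1-2, with a log2 fold change of 0.32 (standard error 0.25). Its partner EME1 had one of -0.80 (standard error 0.38), and GEN1 and the scaffold SLX4 had -0.78 and -0.09. MUS81 was thus higher with siFAT1-1, where EME1 was at 5.60 and 6.71 CPM against 8.83 and 14.0 CPM with NC. ATM, the kinase that responds to breaks, was at 23.8 and 51.2 CPM with NC, 41.6 and 38.9 CPM with siFAT1-1 and 41.7 and 53.3 CPM with siFAT1-2, 3 of these 4 between the NC values and 1 above them. ATR, the kinase of stalled forks, was at 65.2 and 79.5 CPM with NC and at 60.4, 66.2, 65.7 and 71.9 CPM with KD. CHEK1, the kinase below ATR, was at 52.1 and 45.8 CPM with NC, 34.4 and 38.4 CPM with siFAT1-1 and 33.2 and 47.6 CPM with siFAT1-2. The KD libraries of ATM and ATR overlapped with NC, and those of CHEK1 did so in 1 library. Their log2 fold changes were 0.23, -0.13 and -0.35, and that of CHEK2, the kinase below ATM, was -0.55, with standard errors of 0.32, 0.19, 0.23 and 0.38.

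**Figure D3:**
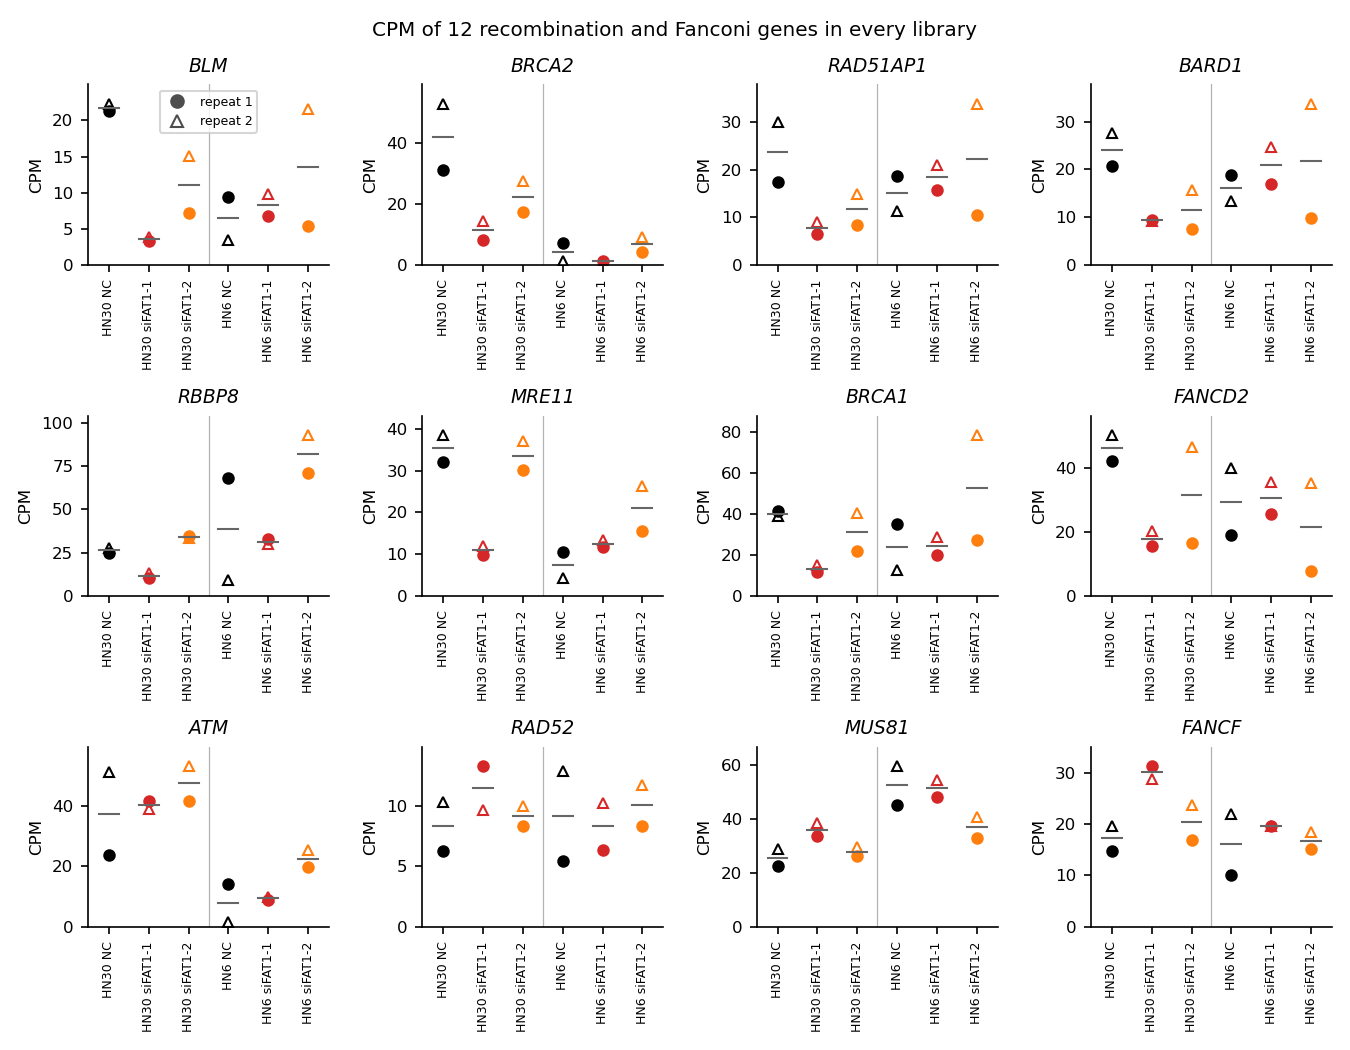
CPM of 12 members in every library, with circles for repeat 1, triangles for repeat 2 and a bar at the mean of both. BLM, BRCA2, RAD51AP1 and BARD1 lie below NC in all 4 KD libraries of HN30, RBBP8 does so in both siFAT1-1 libraries and MRE11 in these and in siFAT1-2 repeat 1, and ATM, RAD52, MUS81 and FANCF do not.

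To ask which members departed from the S phase fall, the HN30 fit was repeated with the S phase level of each library as an offset, so that a gene that moves as the S phase genes do has a value of 0. The members had a median of 0.65 in this fit, and all genes tested one of 1.39. The G2/M genes had one of 0.20. Of the 39 members, 20 lay within 1 standard error of the S phase level, 19 above it by more and 0 below it by more. The 20 ran from BLM at -0.55 (standard error 0.63) to CHEK2 at 0.65 (standard error 0.66), with BRCA2, RAD51AP1, FANCA, FANCG, BARD1 and FANCB at -0.22, -0.14, -0.0028, 0.028, 0.035 and 0.046. They also held FANCM, FANCD2, BRCA1, XRCC2, FANCI, RAD54L, UBE2T, MRE11, GEN1, EME1, RAD54B and FANCC, between 0.18 and 0.61. The standard errors of 0.60 to 0.83 were wide, and a value within 1 of them does not show that a gene moved as the S phase genes did. Called above the S phase level were FANCF at 1.97 (standard error 0.67), MUS81 at 1.71 (standard error 0.65), RAD52 at 1.71 (standard error 0.73), ATM at 1.49 (standard error 0.65), RAD50 at 1.34 (standard error 0.65) and WRN at 1.29 (standard error 0.64). They were 15.4% of the members, against 49.2% of all genes. After adjustment 0 members passed, against 4.07% of all genes and 6 members at an unadjusted P under 0.05, and the lowest edgeR adjusted p was 0.0553 for FANCF. The count was 0 without HN30 NC repeat 1, 2 and 1 without siFAT1-1 repeats 1 and 2, and 14 without HN30 siFAT1-2 repeat 2, and the replicate block left 4, namely FANCF, MUS81, RAD52 and ATM.

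The list of other repair genes, which surround these pathways, held 61 symbols, of which 60 were tested. In HN30, 52 of the 60 had a negative log2 fold change, with a median of -0.41, and 8 were called downregulated and 0 upregulated. This list shares EXO1, CLSPN, USP1, RPA2 and TIPIN with the S phase list, and without these 5 the median was -0.39, with 47 of 55 negative and 6 called. The lowest of the 60 were EXO1 at -1.27 (standard error 0.78), a resection nuclease, CLSPN at -1.24 (standard error 0.48), the adaptor of CHEK1, and FAAP24 at -1.23 (standard error 0.47), a partner of FANCM. EXO1 did not pass the test, and CLSPN and FAAP24 did. The highest were FAM175A (ABRAXAS1), a scaffold of the BRCA1-A complex, at 0.77 (standard error 0.38), EME2, a partner of MUS81, at 0.50 (standard error 0.41) and the checkpoint clamp loader RAD17 at 0.41 (standard error 0.27), none of which passed. Over both lines 1 of the 60 was called and in HN6 0. At an unadjusted P under 0.05 there were 4 of the 60 in HN6, against 779 of all 13626 genes.

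**Figure D4:**
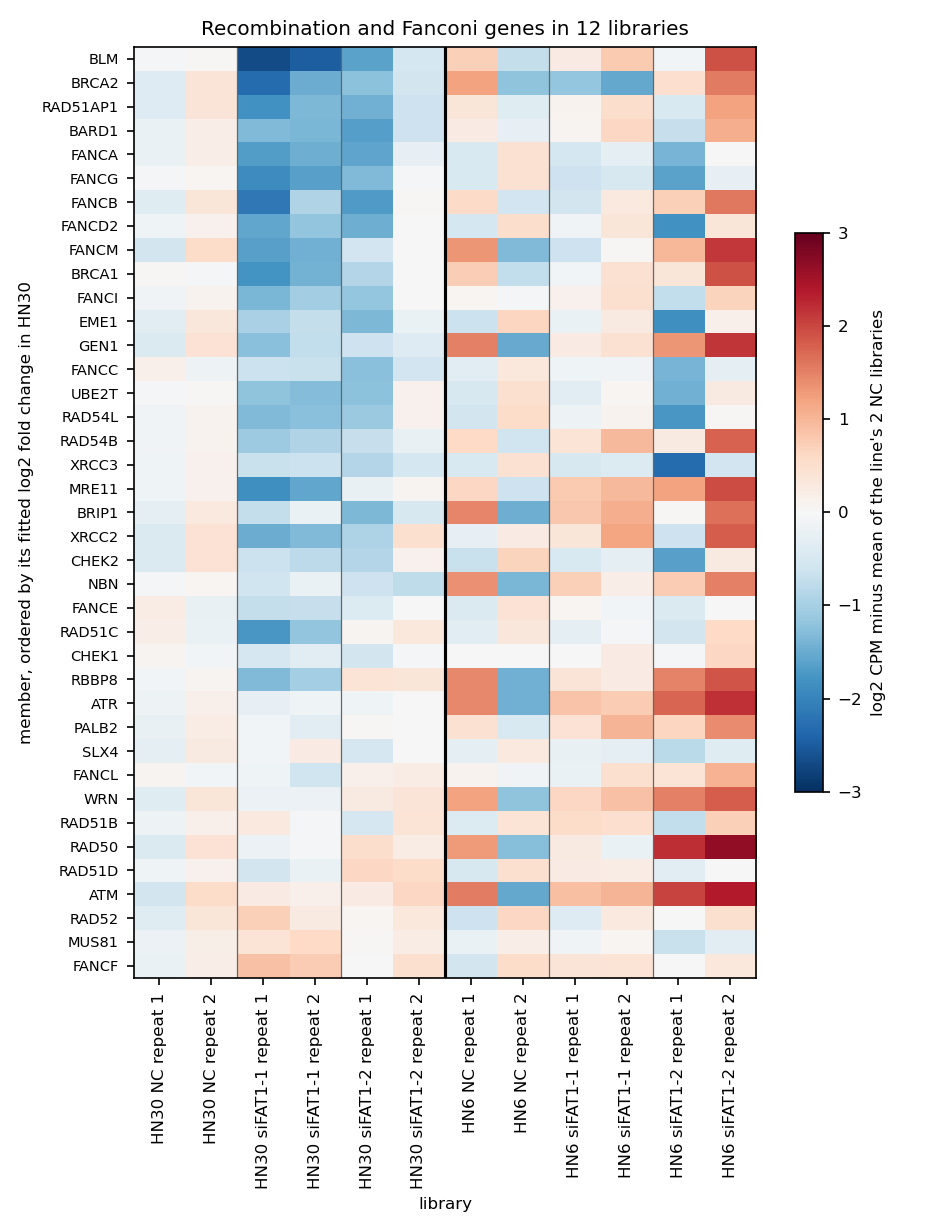
Log2 CPM of the 39 members in the 12 libraries minus the mean of the NC libraries of the line, on a scale from -3 (blue) to 3 (red), ordered by the fold change in HN30. The HN30 siFAT1-1 columns are blue for 34 of 39 members in each repeat, and in HN6 the NC repeats differ in opposite ways in AT-rich and GC-rich genes.

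In HN6 the members did not follow this pattern. Their median log2 fold change was 0.32, against 0.03 over all genes. Of the 39 members 24 were higher and 15 lower, and of all genes 47.8% were lower. By the unadjusted rule 1 member, MRE11, was called, which is 2.56% of the members against 3.08% of all genes. After adjustment 0 members and 0 genes passed. MRE11 was at 10.5 and 4.34 CPM with NC, 11.7 and 13.3 CPM with siFAT1-1 and 15.7 and 26.4 CPM with siFAT1-2, above NC in all KD libraries. It was the only member without overlap in this line, with all 4 KD libraries higher in 1 member (7.23% of all genes) and lower in 0 members (9.03% of all genes). The log2 fold change of MRE11 was 1.21 (standard error 0.51, edgeR adjusted p = 0.814), and it lost the call with the replicate block. The count in HN6 was 0 without NC repeat 2, siFAT1-1 repeat 2 or siFAT1-2 repeat 2, and 9 without NC repeat 1. In HN6 the median of the S phase genes was -0.06.

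The differences of the members in HN6 went with the GC content of their transcripts. Of the 14 members under 40% GC, 13 had a positive log2 fold change in HN6, with a median of 0.57, and of the 9 members with 50% GC or more 0 did, with a median of -0.39. In HN30 the medians of the same groups were -0.68 and -0.76. Libraries of HN6 stood apart in this respect. In HN6 NC repeat 2 the level of all genes relative to the mean of the 6 HN6 libraries rose with GC content, with a Spearman correlation across genes of 0.55, and its AT-rich members were at a median of -1.60. In HN6 siFAT1-2 repeat 2 the correlation was -0.62 and the AT-rich members were at 1.17. In the 6 HN30 libraries it lay between -0.22 and 0.17. Genes are not independent replicates, and these correlations carry no test. With the GC trend of each library removed, an alternative chosen after seeing the data, the median of all members in HN6 was 0.015 and that of the AT-rich members 0.077, MRE11 had a log2 fold change of 0.69 and 0 members were called, while in HN30 the same 5 members were called with a median of -0.66. ATM shows the size of the spread in HN6, with 14.1 CPM in NC repeat 1 and 1.64 in NC repeat 2. ATR had 38.2 and 5.05 CPM and RAD50 12.9 and 2.17 CPM in the same libraries, whereas the GC-rich XRCC3 was at 102 and 193 CPM. With siFAT1-1 and siFAT1-2 in HN6, ATM was at 9.01 and 9.80 CPM and at 19.7 and 25.4 CPM, and ATR at 25.2 and 23.8 CPM and at 46.7 and 64.0 CPM, so that for both genes NC repeat 1 lay between the siRNAs and NC repeat 2 below all of them.

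For the substrates of the core complex, the high members and CHEK1 the HN6 groups overlapped as well. FANCD2 was at 19 and 39.8 CPM with NC, 25.6 and 35.6 CPM with siFAT1-1 and 7.80 and 35.3 CPM with siFAT1-2 in HN6. FANCI was at 58.6 and 53.9 CPM with NC, 61.2 and 78.3 CPM with siFAT1-1 and 33.5 and 89.9 CPM with siFAT1-2. In both genes siFAT1-2 repeat 1 was the lowest HN6 library. CHEK1 was at 27.4 and 27.1 CPM with NC, 27.5 and 32.5 CPM with siFAT1-1 and 26.3 and 42.0 CPM with siFAT1-2, and its NC repeats were close to each other. Of the members high in HN30, MUS81 was at 45.3 and 59.7 CPM with NC, 48.2 and 54.6 CPM with siFAT1-1 and 32.9 and 40.9 CPM with siFAT1-2 in HN6, with siFAT1-2 below NC and siFAT1-1 between the NC values. RAD52 was at 5.42 and 12.9 CPM with NC, 6.36 and 10.3 CPM with siFAT1-1 and 8.32 and 11.8 CPM with siFAT1-2. FANCF was at 10.1 and 21.9 CPM with NC, 19.7 and 19.7 CPM with siFAT1-1 and 15.1 and 18.4 CPM with siFAT1-2. For RAD52 and FANCF all KD libraries of HN6 lay between the NC repeats. RAD51C was at 25.6 and 40.8 CPM with NC, 26.8 and 30.9 CPM with siFAT1-1 and 21.9 and 48.9 CPM with siFAT1-2, and FANCL at 9.79 and 8.44, 7.90 and 12.7, and 12.2 and 18.8 CPM.

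**Figure D5:**
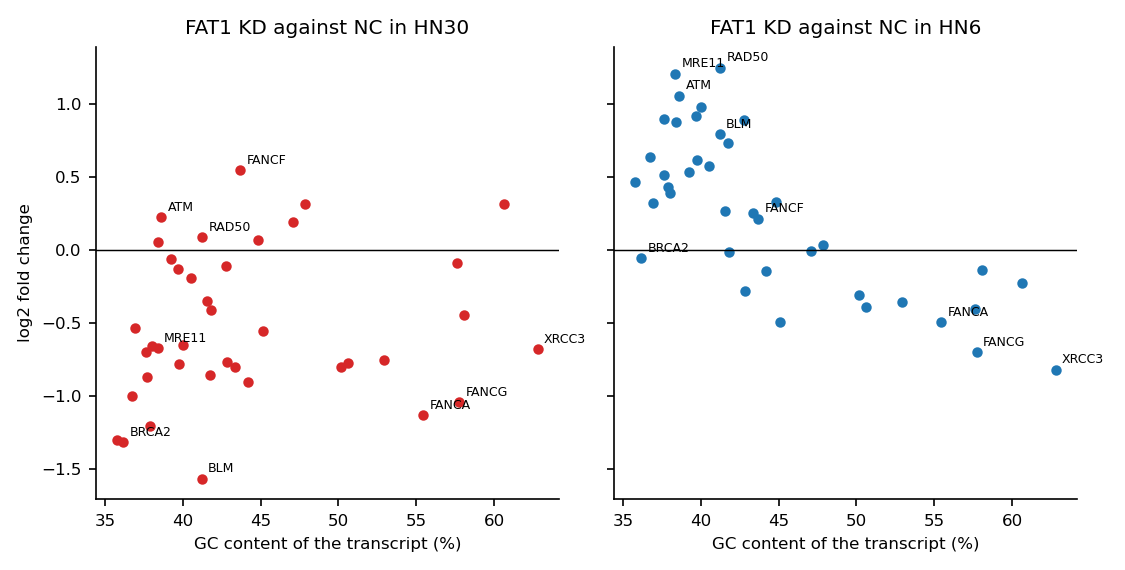
Log2 fold change of FAT1 KD against NC in HN30 (left) and HN6 (right) for the 39 members against the GC content of their canonical transcript in percent. In HN6 the members under 40% GC have a median of 0.57 and those with 50% or more one of -0.39, and in HN30 these medians are -0.68 and -0.76.

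The difference between the lines was tested as an interaction, the HN30 effect minus the HN6 effect. Its median over the members was -0.74, with 33 of 39 negative, against a median of 0.02 over all genes, with 48.3% negative. BLM at -2.32 (standard error 0.97), MRE11 at -1.84 (standard error 0.79), RAD51AP1 at -1.73 (standard error 0.67), BARD1 at -1.60 (standard error 0.63) and RAD54B at -1.56 (standard error 0.66) passed the unadjusted thresholds. These 5 are 12.8% of the members, against 1.87% of all genes. After adjustment 0 members and 0 genes passed, with every edgeR adjusted p of a member above 0.99. In HN6, BLM was at 9.45 and 3.44 CPM with NC, 6.81 and 9.83 CPM with siFAT1-1 and 5.39 and 21.6 CPM with siFAT1-2, and RAD51AP1 at 18.7 and 11.4, 15.8 and 21.0, and 10.5 and 33.9 CPM. For BARD1 the HN6 values were 18.8 and 13.4 CPM with NC, 17 and 24.7 CPM with siFAT1-1 and 9.82 and 33.7 CPM with siFAT1-2, and for RAD54B 9.04 and 3.87, 7.90 and 11.6, and 7.11 and 20.4 CPM. The KD libraries of these 4 genes overlapped with NC in HN6 and did not in HN30. The replicate block left 2 calls, BARD1 and RAD51AP1, and removing the GC trend left BLM and MRE11, while both together left 0. The count was 0 without HN6 NC repeat 2 and without HN30 NC repeat 2, 2 without HN30 NC repeat 1, either HN30 siFAT1-1 library or HN6 siFAT1-2 repeat 2, 9 without HN30 siFAT1-2 repeat 2 and 16 without HN6 NC repeat 1.

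Over both lines with the cell line as a term, edgeR called 0 members, against 3.13% of all genes, and limma-voom and DESeq2 also called 0. The count was 2 without HN6 NC repeat 1 or HN30 siFAT1-2 repeat 2 and 1 without HN6 siFAT1-2 repeat 2. After adjustment 0 members passed, against 0.532% of all genes. At an unadjusted P under 0.05 there were 4 of 39 members, against 2030 of all 14105 genes. These 4 were all lower and all GC-rich: FANCG at -0.88 (standard error 0.33), FANCA at -0.84 (standard error 0.32), XRCC3 at -0.76 (standard error 0.28) and FANCC at -0.60 (standard error 0.25). Their lowest edgeR adjusted p was 0.245, for XRCC3. In HN6, FANCG was at 59.8 and 112 CPM with NC, 53.3 and 58.5 CPM with siFAT1-1 and 26.7 and 68.5 CPM with siFAT1-2. FANCA was at 57.2 and 107 CPM with NC, 54.3 and 64.5 CPM with siFAT1-1 and 29.6 and 79.1 CPM with siFAT1-2 in that line, and FANCC at 36.3 and 57.0, 41.8 and 42.4, and 17.3 and 37.8 CPM. XRCC3 was at 100 and 106 CPM with siFAT1-1 and at 28.2 and 93.7 CPM with siFAT1-2. All 4 overlapped with NC in HN6.

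The siRNAs were also compared with each other, over both lines with the cell line as a term. FAT1 itself was lower with siFAT1-1, at a log2 difference of -0.73, with an unadjusted edgeR P under 0.05 below the fold threshold. Whether the depth of the knockdown bears on the members was not tested. Of the members, 6 were lower with siFAT1-1 than with siFAT1-2 past the unadjusted thresholds and 0 were higher, or 15.4% against 12.5% of all genes. After adjustment 2 passed, or 5.13% against 17% of all genes, and limma-voom had 0 and DESeq2 6 members past adjustment. Those 2 were BRCA2, with a log2 difference of -1.78 (standard error 0.53, edgeR adjusted p = 0.0386), and RBBP8, with -1.46 (standard error 0.44, edgeR adjusted p = 0.0406). In HN6, BRCA2 was at 1.34 and 1.02 CPM with siFAT1-1, 4.34 and 9.04 CPM with siFAT1-2 and 7.09 and 1.30 CPM with NC, and RBBP8 at 33.1 and 29.7, 71.1 and 93.1, and 68.4 and 9.28 CPM. Both genes were lower in every siFAT1-1 library than in every siFAT1-2 library of the same line, in both lines. FANCM, RAD50, BRCA1 and MRE11 had log2 differences of -1.67, -1.51, -1.16 and -1.09, and RAD51C and FANCL, at -0.92 and -0.56, and MUS81, at 0.43, had a P under 0.05 below the fold threshold. With the GC trend removed, BRCA2, RBBP8, FANCM and RAD50 stayed past the thresholds at -1.19, -1.18, -1.20 and -1.25.

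Seen against NC in HN30, both siFAT1-1 libraries were below both NC libraries in 28 of 39 members and both siFAT1-2 libraries in 11, against 30.4% and 25.2% of all genes. Both siFAT1-1 libraries were below both siFAT1-2 libraries in 19 members, against 32.4% of all genes. In RBBP8, RAD51D and FANCL the NC libraries lay between the siRNAs, siFAT1-1 below and siFAT1-2 above. RAD51D was at 6.34 and 7.55 CPM with NC, 4.74 and 5.97 CPM with siFAT1-1 and 10.7 and 10.2 CPM with siFAT1-2, and FANCL at 12.2 and 10.8, 10.6 and 7.54, and 12.7 and 13.3 CPM. FANCM, a fork-remodelling translocase, was at 5.89 and 12.7 CPM with NC, 2.76 and 3.17 CPM with siFAT1-1 and 5.77 and 8.63 CPM with siFAT1-2. In HN6 FANCM was at 4.37 and 0.649 CPM with NC, 1.09 and 1.75 CPM with siFAT1-1 and 3.46 and 7.66 CPM with siFAT1-2. RAD50 was at 6.43 and 4.65 CPM with siFAT1-1 and at 24.9 and 34.0 CPM with siFAT1-2 in HN6, and BRCA1 at 19.9 and 28.9 and at 27.2 and 78.7 CPM, beside 35.1 and 12.6 CPM with NC. The siRNAs did not overlap for FANCM and RAD50 in HN6, and they did for BRCA1.

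The lines differed in the level of many members. HN6 against HN30, with the siRNA as a term, called 17 members, 10 higher and 7 lower in HN6, or 43.6% against 32.2% of all genes, and 21 after adjustment, or 53.8% against 56.9% of all genes. Lower in HN6 were RAD50 at -2.81 (standard error 0.44, edgeR adjusted p = 0.000200), BRCA2 at -2.77 (standard error 0.45, edgeR adjusted p = 0.000238) and ATM at -1.81 (standard error 0.42), and also NBN, ATR, FANCM and WRN at -1.25, -1.15, -1.11 and -1.06. Higher in HN6 were XRCC3 at 1.78 (standard error 0.27), RAD54L at 1.64 (standard error 0.37), FANCC at 1.49 (standard error 0.22, edgeR adjusted p = 0.000124) and RAD51C at 1.48 (standard error 0.28), with FANCG, UBE2T, FANCA, EME1, RBBP8 and RAD51D between 1.03 and 1.37. The members under 40% GC had a median of -0.77 and those with 50% or more one of 1.24. With the GC trend removed these were -0.35 and 1.05, and 13 members were called, with BRCA2 at -2.23, RAD50 at -2.64 and XRCC3 at 1.79 among them.

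Levels of different genes can be set side by side only per length, here as CPM per kilobase of the canonical transcript. With NC in HN30 the highest was UBE2T, at 38.3 ± 0.998 (SD, n = 2), followed by FANCI at 19.3 ± 2.14 (SD, n = 2), NBN at 18.2 ± 1.20 (SD, n = 2) and FANCG at 15.7 ± 0.799 (SD, n = 2). UBE2T stood apart, while FANCI and NBN did not differ beyond their spread. BRCA1 was at 5.66 ± 0.248, BRCA2 at 3.51 ± 1.28 and FANCM at 1.30 ± 0.677 (SD, n = 2 each). The lowest was RAD51D, at 0.697 ± 0.0863 (SD, n = 2), per kilobase of an annotated transcript of 9966 bases. With NC in HN6, UBE2T at 72.4 ± 33.1 and XRCC3 at 57.5 ± 24.9 led, and BRCA2 at 0.351 ± 0.343 and FANCM at 0.352 ± 0.369 came last (SD, n = 2 each), with spreads so wide that neither pair can be ordered.

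Several members share sequence with other loci, and since the use of strand in counting is not stated, their reads cannot be fully told apart. Annotated pseudogenes exist for BRCA1, MRE11, RBBP8, RAD51AP1, RAD52, FANCD2 and CHEK2. Genes on the opposite strand overlap FANCI (POLG), FANCD2 (FANCD2OS), FANCF (GAS2), MUS81 (CFL1 and EFEMP2) and NBN (OSGIN2 and DECR1) among others, and FSBP lies within RAD54B on the same strand. The values of these genes are uncertain to that extent.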

How the data were processed

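Poly(A) RNA of 12 libraries was sequenced as 150-bp read pairs. The authors removed poly-N, PCR-duplicated and low-quality reads and mapped the rest to hg38, and the submitters' processing notes name HISAT2 and featureCounts; tool versions, gene models and strandedness of counting are not given in the sources used here. The deposited values are whole-number counts per gene, without normalization, and 0 columns of per-sample values were left out. Symbols were looked up in GENCODE 44 (GRCh38): 18278 of 19225 matched as written, and 756 more by a former name.

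Counts were normalized with TMM, filtered with filterByExpr (minimum count 10) and tested with edgeR 4.0.16 (glmQLFit, glmQLFTest), with Benjamini-Hochberg adjustment over all genes tested. Calls used the rule of the study, unadjusted P under 0.05 with a log2 fold change beyond 1 in either direction. Log2 CPM used a prior count of 2, and fitted fold changes one of 0.125. The S phase offset was the mean log2 CPM of the S phase list. Alternatives were DESeq2 1.42.0 (Wald test and size factors), limma 3.58.1 (voom), other filters, a fit over all 6 groups, a fit without cell line, MCM and fork genes in place of the S phase list, leaving out each library, the replicate block and, added after seeing the data, removal of a GC or length trend. R 4.3.3, Python 3.11.15, pandas 2.3.3 and matplotlib 3.10.9 were used, and the steps were tested on simulated data.

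Repeat numbers stand for separate times in the labels and therefore pair libraries of a line; the deviations of same-numbered libraries had correlations across genes of -0.03 to 0.39. The members and gene lists were chosen with earlier results of these data known. Every member was named, and values in each library were given for the 4 lowest and 4 highest members in HN30, for BRCA1, BRCA2, FANCD2, FANCI, FANCA, ATM, ATR and CHEK1, and for any with P under 0.05 over both lines, in the interaction or between the siRNAs. Values of further members were given after they had been seen.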

Additional observations from a re-analysis of the deposited data

Results flagged for a closer look

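With 39 members in 2 lines, 78 groups of 4 KD libraries were examined for a single library far from the other 3, and 8 held one. The cut flags about 1 in 20 groups by chance only where groups are independent and their libraries alike. Here each group mixed 2 siRNAs and 6 of the 8 flags fell in the same library, so the count cannot be set against that rate. In HN30 the 6 cases were all the highest of the 4 KD libraries of their gene and all in siFAT1-2 repeat 2: FANCI at 89.9 CPM, FANCD2 at 46.5 CPM, FANCA at 38.8 CPM, UBE2T at 36.6 CPM, RAD54L at 19.9 CPM and XRCC2 at 14.6 CPM. This is the library in which the S phase genes were 0.35 below NC on the log2 scale, against 1.16 to 1.96 below in the other KD libraries of HN30, and its part in the members' values was not tested. In HN6, BRCA1 was at 78.7 CPM in siFAT1-2 repeat 2, and XRCC3 was at 28.2 CPM in siFAT1-2 repeat 1, below the other KD libraries.

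For 5 of 39 members the effect of FAT1 KD differed between the lines in edgeR's interaction test at an unadjusted P under 0.05. The same held for 317 of all 14360 genes. The HN30 effect minus the HN6 effect was -2.32 for BLM, -1.84 for MRE11, -1.73 for RAD51AP1, -1.60 for BARD1 and -1.56 for RAD54B on the log2 scale. None passed after adjustment over all genes, and with the GC trend of each library removed only BLM and MRE11 kept the call.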

How the results depend on the processing

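The median log2 fold change of the members moved by less than the spread between repeats in each of the 65 recomputed values outside the fits that left out a library. That spread was 0.41 on the log2 scale. In size it exceeded the medians in HN6 (0.32), over both lines (-0.17), between the siRNAs (-0.29) and between the lines (0.03). For these the check could not show the loss of a median, and the HN6 median did fall with the GC trend removed. The number of members called in HN30 was 8 with the replicate block and 8 with limma-voom, where 5 were called as reported. In HN6 it was 0 with the replicate block, with the GC trend removed and with both, where 1 was called. For the interaction it was 2 with the replicate block, 2 with the GC trend removed and 0 with both, where 5 were called, and over both lines it was 1, BRCA2, with the GC trend removed, with or without the block, where 0 were called. The block changed the count of no other comparison by more than 1.5 times.

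With 1 library left out, the members called ranged from 0 to 15 in HN30, from 0 to 9 in HN6, from 0 to 16 for the interaction, from 0 to 2 over both lines, from 4 to 8 between the siRNAs, from 12 to 18 between the lines and from 0 to 14 relative to the S phase level. In HN30 members near 0 changed sign in some of these fits, namely ATM from -0.20 to 0.88, ATR from -0.24 to 0.0113, FANCL from -0.16 to 0.0911, PALB2 from -0.29 to 0.13, RAD50 from -0.27 to 0.59, RAD51B from -0.0595 to 0.23, RBBP8 from -0.47 to 0.0604, SLX4 from -0.32 to 0.20 and WRN from -0.24 to 0.45 on the log2 scale. Each condition had 2 libraries, so the spread rested on few of them, and a lone library of a condition was assumed to vary like the others. Counting error was smallest for the deepest members and largest for those with counts as low as 23. The cause of these shifts was not tested.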
